A study of Mus musculus with 40 samples.

Results

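A set of 10 voltage-gated calcium channel genes was followed in mouse dorsal root ganglia, the seat of sensory neuron cell bodies, over the first 10 days after spared nerve injury. They are the auxiliary alpha2delta genes Cacna2d1, Cacna2d2 and Cacna2d3, the pore-forming alpha1 genes Cacna1a, Cacna1b and Cacna1h, the beta genes Cacnb1, Cacnb3 and Cacnb4, and the gamma gene Cacng2. Members were the probes that the platform's probe table assigns to these names, which gave 13 probes of 8 genes out of 16593 genes with a named probe. Cacna2d2 and Cacnb3 were not analysed here. Of the 13 probes 12 exceeded the detection level (6.85 on the normalized log2 scale) on 3 or more arrays, so that all 8 genes were tested among 10519 genes.

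RNA came from adult male C57BL/6J mice aged 9 to 10 weeks. In spared nerve injury 2 of the branches of the sciatic nerve, the tibial and the common peroneal, are ligated and severed while the sural stays whole. The labels do not state the spinal levels or the side of the ganglia taken, so the share of neurons with cut axons in a sample is not known. Injured ganglia were taken at 8 h, 16 h, 1, 2, 3, 5, 6, 7 and 8 days (3 arrays each) and at 4, 9 and 10 days (2 arrays each). The reference was 7 arrays of naive mice of the same strain with no surgery, and no sham-operated group was used here. Times were also joined into an early phase (8 h to 1 day, 9 arrays), a middle phase (2 to 5 days, 11 arrays) and a late phase (6 to 10 days, 13 arrays). Whether each array carries RNA from 1 animal or from pooled animals is not stated in the labels, and p-values therefore reflect only how these samples vary, which may be technical.

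A voltage-gated calcium channel is built around an alpha1 subunit, which forms the pore and senses the voltage. A beta subunit inside the cell and an extracellular alpha2delta subunit help to bring the pore to the membrane and to set how it gates. In sensory neurons these channels trigger transmitter release at the central terminals and shape firing at the cell body, and the alpha2delta-1 protein, encoded by Cacna2d1, is the binding site of the pain drugs gabapentin and pregabalin.

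The promoters of the alpha2delta genes Cacna2d1 and Cacna2d3 are shown because these were the members past the threshold in the late phase, in opposite directions. Each sequence runs from 250 bases before to 50 bases after the transcription start in RefSeq (GRCm38.p6), and capitals mark GC boxes (GGGCGG, on either strand), the core sequence bound by Sp family factors. The Cacna2d1 window lies at chr5:15934441-15934740 on the plus strand and the Cacna2d3 window at chr14:29721815-29722114 on the minus strand.
Cacna2d1: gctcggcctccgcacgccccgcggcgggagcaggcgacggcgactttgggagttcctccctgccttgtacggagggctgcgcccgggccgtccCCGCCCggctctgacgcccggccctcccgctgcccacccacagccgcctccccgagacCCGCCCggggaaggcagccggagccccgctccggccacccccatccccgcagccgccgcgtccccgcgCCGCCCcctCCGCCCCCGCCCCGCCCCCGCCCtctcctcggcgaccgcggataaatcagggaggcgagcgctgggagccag
Cacna2d3: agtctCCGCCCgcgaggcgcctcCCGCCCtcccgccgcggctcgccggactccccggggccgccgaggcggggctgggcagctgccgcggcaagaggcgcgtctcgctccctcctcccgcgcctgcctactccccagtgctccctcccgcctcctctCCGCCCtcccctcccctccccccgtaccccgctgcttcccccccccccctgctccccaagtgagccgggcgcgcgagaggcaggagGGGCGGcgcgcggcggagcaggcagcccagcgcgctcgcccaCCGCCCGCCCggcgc

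Both windows were rich in G and C. The Cacna2d1 window had a GC content of 80.0% with 42 CpG dinucleotides and 7 GC boxes. The Cacna2d3 window had a GC content of 81.33% with 41 CpG dinucleotides and 6 GC boxes, of which the last pair overlap. The median GC content of all promoters was 52.67%, and 35.7% of the 32851 promoters of the same length held a GC box. Neither window held an AP-1 site (TGANTCA, in 7.81% of all promoters) or a cAMP response element (TGACGTCA, in 1.79%) on either strand. Of the 10 listed genes, all but Cacna1a and Cacna1h had an entry (8 genes, Cacna2d2 and Cacnb3 among them, with 12 transcription starts). None of these 8 held either motif, and 7 held a GC box.

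Across the arrays of this series the median signal lay between 130.2 and 244.5 intensity units, and a gene's standard deviation (SD) within groups had a median of 0.185 on the log2 scale. Atf3, a transcription factor induced by nerve injury, had a normalized log2 signal of at least 8.45 on every injured array and of at most 7.54 on every naive array. All 8 measured macrophage markers rose in the middle phase and 7 of 8 in the late phase, with array means of 8.75 to 9.41 in the middle phase and 9.01 to 9.48 in the late phase, against 8.14 to 8.43 in naive ganglia. Over all genes tested, 10.9% passed in each of these phases. Of 10 sensory neuron markers, 2 fell in each of these phases, and their array means overlapped (11.65 to 11.99 in the middle phase, 11.74 to 12.09 in the late phase and 11.84 to 12.06 in naive ganglia). Of 7 markers of low-threshold mechanoreceptors and large-fibre neurons, 1 fell in the middle phase and 1 in the late phase. Their array means were 9.15 to 9.43 (middle) and 9.13 to 9.54 (late), against 9.38 to 9.62 in naive ganglia. Of 6 nociceptor markers, 1 fell in the middle phase and 0 in the late phase. Their array means were 10.10 to 10.43 (middle) and 10.22 to 10.64 (late), against 10.36 to 10.72 in naive ganglia. Skeletal muscle markers (14 measured, none past the threshold in any phase) had array means that reached 9.82 on 8-hour replicate 2, 9.44 on 3-day replicate 2, 11.67 on 8-day replicate 1 and 9.10 on 9-day replicate 1, against 6.61 to 8.89 in naive ganglia. Their median log2 difference from naive was 0.61 early, 0.17 in the middle phase and 0.60 late.

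The time course against naive ganglia addressed when expression moves in the first 10 days after injury. Cacna2d1 was the member that rose. It was raised 1.67-fold in the middle phase and 1.64-fold in the late phase, and its first call came at 3 days. Cacna2d3 fell in the late phase to 0.825 of its naive level. None of the 3 pore-forming genes passed the threshold in any phase. The shares of all genes that passed were 1.12% early, 10.9% in the middle phase and 10.9% late. The difference between pore-forming and auxiliary genes was not tested.

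Cacna2d1 (probe ILMN_2752030) was above the detection level on all 40 arrays. Its normalized log2 signal was 11.26 at the lowest, 11.83 at the median and 12.06 at the highest of the 7 naive arrays. It was 11.64, 11.98 and 11.36 at 8 h, and 11.68, 12.18 and 11.74 at 16 h. In this stretch 1 of 6 injured arrays, 16-hour replicate 2, lay above every naive array.

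At 1 day the Cacna2d1 signals were 12.09, 12.15 and 12.24, so that all 3 arrays lay above the highest naive array. At 2 days they were 12.36, 11.65 and 12.45. Replicate 2 at 2 days lay among the naive arrays and the others above them. At 3 days they were 12.59, 12.56 and 12.95, and at 4 days 12.48 and 12.71. Every array of these 2 times lay above the naive range, and 3-day replicate 3 was the highest of all 40.

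From 5 days on every group mean lay above the highest naive array. The Cacna2d1 mean was 12.375 at 7 days, 12.70 at 8 days and 12.36 at 9 days. The Cacna2d1 signals were 12.47, 12.39 and 12.68 at 5 days, 12.44, 12.62 and 12.09 at 6 days, and 12.03, 12.67 and 12.43 at 7 days. Replicate 1 at 7 days was the only late array not above the highest naive array. At 8 days they were 12.85, 12.72 and 12.53, at 9 days 12.25 and 12.48, and at 10 days 12.37 and 12.58. In the plot of both alpha2delta genes by time, the group means of Cacna2d1 lie above the naive band from 1 day on, and those of Cacna2d3 lie below its lower edge from 5 days on.

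**Figure D1:**
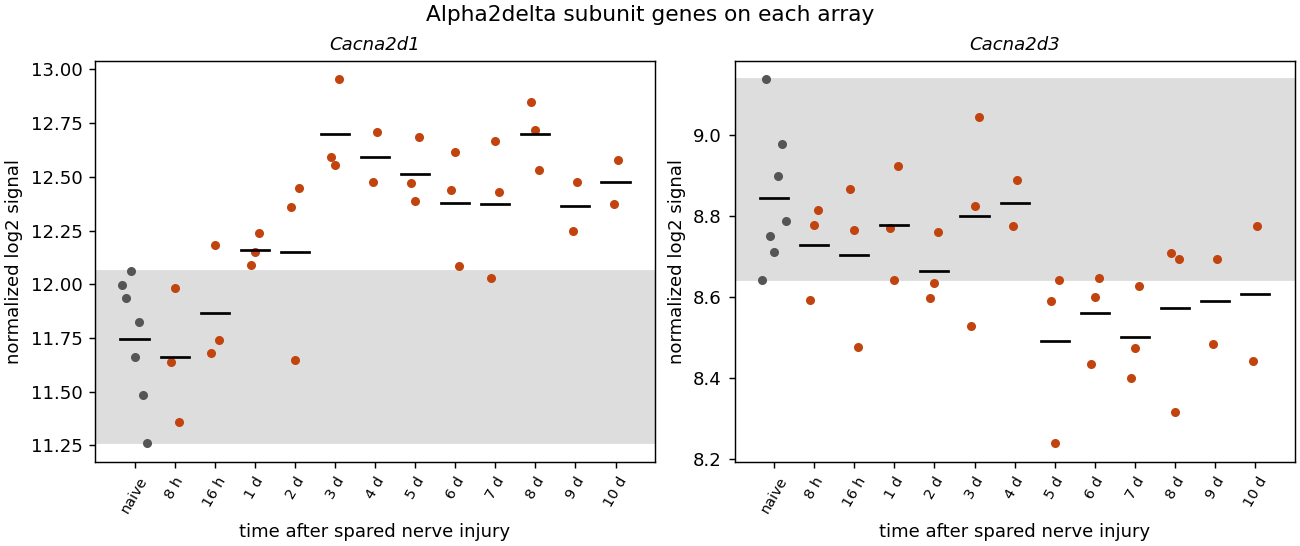
Normalized log2 signal (vertical axis) of Cacna2d1 (left) and Cacna2d3 (right) on each of the 40 arrays by time after spared nerve injury, with naive at the left end. Points are arrays, lines are group means and the grey band is the range of the 7 naive arrays; 12 of 13 late arrays of Cacna2d1 lie above that band and 8 of 13 late arrays of Cacna2d3 below it.

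Over all 12 times, Cacna2d1 passed the moderated F-test of limma (adjusted p = 0.000223), and it was the 1 member of 8 that did. The share over all genes tested was 7.52%. In single times it passed at 3, 4, 5, 6, 7, 8 and 10 days, which were the 7 calls among the members over the 12 times. The shares of all genes called at these times were 5.82%, 2.45%, 6.93%, 5.2%, 6.05%, 4.18% and 2.8%. At 8 h, 16 h, 1, 2 and 9 days no member was called, where 0.105%, 0.713%, 1.65%, 3.86% and 2.02% of all genes were. At an unadjusted limma p under 0.05 the member counts at these times were 0, 2, 1, 3 and 1.

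The log2 difference of Cacna2d1 from naive was -0.09 at 8 h and 0.12 at 16 h (adjusted p = 0.965 and 0.84). It was 0.41 ± 0.17 (SE) at 1 day and 0.41 ± 0.17 at 2 days (adjusted p = 0.299 and 0.221). It reached 0.95 ± 0.17 at 3 days (adjusted p = 0.000264) and was again 0.95 ± 0.17 at 8 days (adjusted p = 0.000278). At the other called times it lay between 0.63 and 0.85. At 9 days it was 0.62 ± 0.20 with both arrays above the naive range (adjusted p = 0.124). The calls at 4, 6, 7 and 10 days each rested on single arrays. At 4 days the call was lost without replicate 1 (adjusted p = 0.0699) or 2 (0.358), and at 6 days without replicate 1 (0.0882) or 2 (0.208). At 7 days it was lost without replicate 2 (0.254) or 3 (0.0904). At 10 days it was lost without replicate 1 (0.233), replicate 2 (0.354), or naive replicate 4, 6 or 7 (0.0523, 0.0614 and 0.0626). At 2 days it was gained without replicate 2 (0.66, adjusted p = 0.0427).

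**Figure D2:**
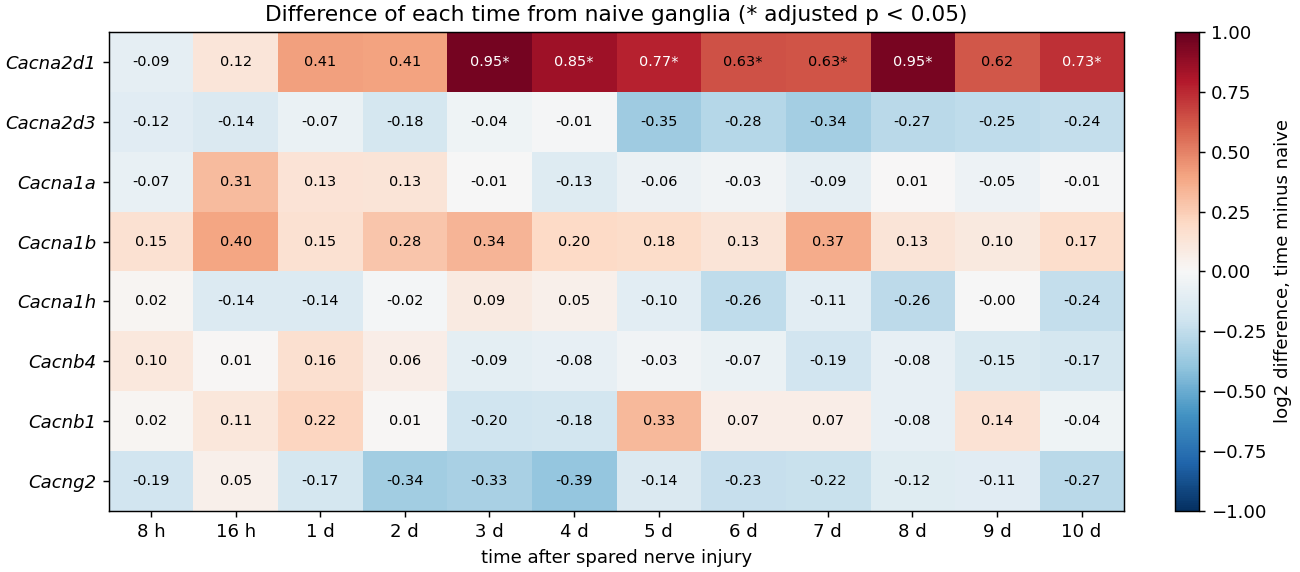
Log2 difference of each time from naive ganglia (colour and printed value) for the 8 measured genes, with times running from left to right. Stars mark adjusted p below 0.05 (limma, Benjamini-Hochberg) and stand in the Cacna2d1 row alone, at 3 to 8 and at 10 days.

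Ordered by group mean, the Cacna2d1 level ran 8 h, naive, 16 h, 2 days, 1 day, 9 days, 7 days, 6 days, 10 days, 5 days, 4 days, 8 days, 3 days. Of the 12 steps between neighbours in this order, 1 was larger than the pooled SD within groups of 0.264, the step of 0.284 between 16 h and 2 days. Sorting by mean makes the steps between neighbours small, so they do not show whether the 8 highest times differed. The means of these times ran from 12.36 at 9 days to 12.70 at 3 days.

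By phase, Cacna2d1 averaged 11.90 ± 0.30 (SD) over 9 early arrays, 12.48 ± 0.32 over 11 middle arrays and 12.46 ± 0.24 over 13 late arrays, beside 11.75 ± 0.29 over 7 naive arrays. The early difference of 0.15 ± 0.12 (SE) did not pass the threshold (adjusted p = 0.7), and no member of 8 did in that phase, where 1.12% of all genes passed (1 member, Cacna1b, at an unadjusted limma p under 0.05). The middle difference was 0.74 ± 0.12 (95% interval 0.50 to 0.99, adjusted p = 3.16e-05), with 10 of 11 middle arrays above the highest naive array. The late difference was 0.71 ± 0.12 (0.48 to 0.95, adjusted p = 3.38e-05). Of the 8 members 2 passed in the middle phase and 2 in the late phase, while 10.9% of all genes passed in each. These contrasts share the 7 naive arrays.

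The late arrays were also above the early arrays in Cacna2d1, a contrast that uses no naive array. The late minus early difference was 0.56 ± 0.11 (adjusted p = 0.000429), with 11 of 13 late arrays above the highest early array. Cacna2d1 was the 1 member called there, where 7.08% of all genes were. Late minus middle was -0.03 ± 0.10 (95% interval -0.24 to 0.18, adjusted p = 0.928), and no member was called, where 0.646% of all genes were (1 member, Cacna1h, at an unadjusted limma p under 0.05).

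The macrophage markers rose in the same phases as Cacna2d1, and their part in its rise was not tested. Muscle also expresses Cacna2d1. A fit chosen after seeing the data left out the 3 arrays highest in muscle markers. It kept 9-day replicate 1, with a muscle marker mean of 9.10. The Cacna2d1 difference in it was 0.76 in the middle phase (adjusted p = 3.38e-05) and 0.70 in the late phase (adjusted p = 6.51e-05). The part of muscle RNA in the rise of Cacna2d1 was not tested. In RNA of whole ganglia, a change in the number of cells of a type and in the RNA per cell cannot be told apart.

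The 3 genes whose 13 group means ran most like those of Cacna2d1, among the other 790 genes that passed the F-test, were Il13ra1, Fst and S100a11. Their Pearson correlations over the 13 group means were 0.937, 0.935 and 0.933, a description of means from the same arrays. Il13ra1, a subunit of the interleukin-13 receptor, differed from naive by 0.21 in the early, 0.87 in the middle and 0.79 in the late phase. Fst, which encodes the activin-binding protein follistatin, differed by 0.64, 1.77 and 1.92, and S100a11, a calcium-binding S100 protein gene, by 0.19, 1.08 and 1.08.

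**Figure D3:**
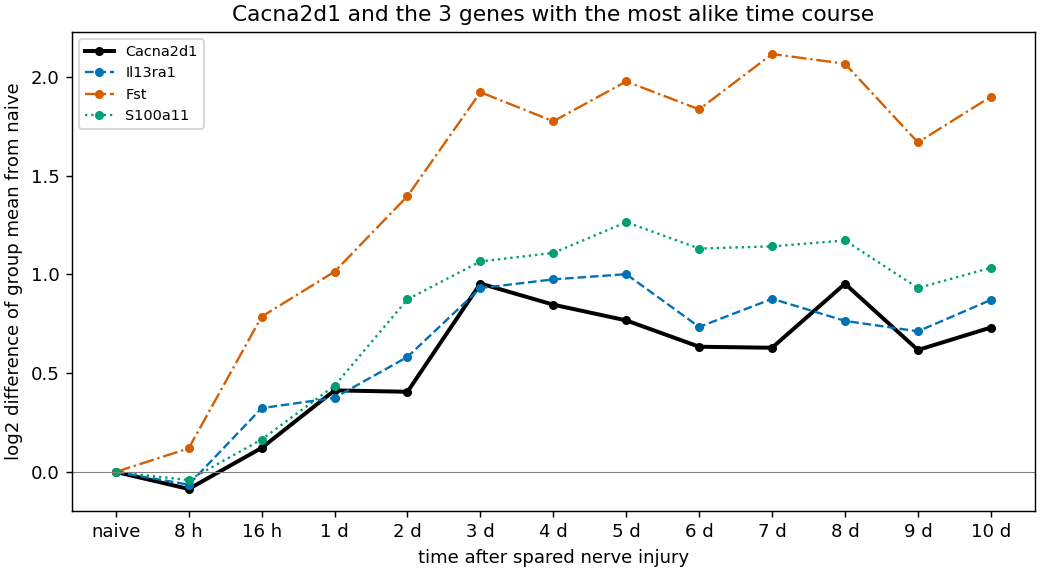
Difference of each group mean from the naive mean (log2, vertical axis) by time after injury for Cacna2d1 and the 3 genes with the most alike group means. The 4 lines climb between 16 h and 3 days and stay above naive after that. Fst lies farthest from naive, and Cacna2d1 lies between 0.62 and 0.95 from 3 days on.

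Cacna2d3 encodes alpha2delta-3, which has been linked to heat nociception in flies and mice. Its probe ILMN_2762672 was above the detection level on all 40 arrays. Late arrays ran from 8.32 through a median of 8.60 to 8.77, against 8.64, 8.79 and 9.14 in naive ganglia. All 13 late arrays lay below the naive mean and 8 of them below the lowest naive array, so the groups overlapped.

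The late difference of Cacna2d3 was -0.28 ± 0.08 (95% interval -0.45 to -0.11, adjusted p = 0.0259, n = 13 against 7). In the early phase it was -0.11 and in the middle phase -0.15 (adjusted p = 0.698 and 0.308). By time, the farthest from naive were 5 days (8.59, 8.24 and 8.64) and 7 days (8.40, 8.47 and 8.63), at each of which all 3 arrays lay below the lowest naive array. Their differences were -0.35 ± 0.12 (adjusted p = 0.0758) and -0.34 ± 0.12 (adjusted p = 0.101). Over all times the F-test gave an adjusted p of 0.424, and late minus early was -0.17 ± 0.08 (adjusted p = 0.238). Leaving out a single array ended the late call for naive replicates 2, 5 and 6 (adjusted p = 0.0956, 0.0519 and 0.0658), 9-day replicate 1 (0.0601) and 10-day replicate 1 (0.075).

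Cacna1b encodes the N-type pore, the main calcium source of transmitter release from nociceptor terminals. Its brightest probe, ILMN_3107273, was above the detection level on all 40 arrays. At 16 h the signals were 7.68, 7.59 and 7.72, at 2 days 7.52, 7.48 and 7.64, and at 3 days 7.45, 7.54 and 7.83. All 9 of these arrays lay above the naive arrays, which ran from 7.00 through 7.30 to 7.44.

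The Cacna1b difference was 0.40 ± 0.12 at 16 h (adjusted p = 0.124), 0.28 at 2 days (0.23) and 0.34 at 3 days (0.0892). By phase it was 0.23 ± 0.09 early (adjusted p = 0.255), 0.25 ± 0.08 in the middle phase (95% interval 0.08 to 0.42, adjusted p = 0.0505) and 0.18 ± 0.08 late (0.185). The middle value lay at the threshold and passed it under offset 16 (adjusted p = 0.0479), cyclic loess (0.0296), a filter of at least 20 arrays (0.045) and the muscle covariate (0.0462), and with any of 9 single arrays left out. Over all 14 other settings the value ran from 0.09 (neqc) to 0.32 and its adjusted p from 0.0296 to 0.533. The gene's other probes differed less in the middle phase, by 0.18 ± 0.12 (ILMN_2770304, above the level on 39 arrays) and by -0.07 ± 0.13 (ILMN_3033572, on 33 arrays), with adjusted p over all kept probes of 0.375 and 0.783.

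Cacna1a encodes the P/Q-type pore of synaptic terminals. Its signals at 16 h were 8.03, 7.65 and 7.82, and 2 of these 3 arrays lay above the naive range of 7.34 to 7.76. The difference at 16 h was 0.31 ± 0.10 (adjusted p = 0.184), and the step between 1 day and 16 h was the only one of 12 in the order of its group means that exceeded the SD within groups. By phase Cacna1a differed from naive by 0.12 early, -0.02 in the middle phase and -0.04 late (adjusted p = 0.575, 0.926 and 0.859), and the last 2 changed sign with single arrays left out.

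Cacna1h encodes a T-type pore that opens near the resting potential and is known for its part in the excitability of nociceptors and low-threshold mechanoreceptors. Late arrays ran from 10.02 through 10.26 to 10.44, against 10.19, 10.44 and 10.68 in naive ganglia. The ranges overlapped, with 4 of 13 late arrays below the lowest naive array. The late difference was -0.17 ± 0.08 (95% interval -0.34 to -0.01 before adjustment, adjusted p = 0.187), and the middle difference was 0.01 ± 0.08 (adjusted p = 0.977).

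Cacnb4 encodes the beta-4 subunit, found mainly in neurons. Its brightest probe, ILMN_3123491, ran from 10.72 through 10.87 to 11.23 on late arrays, against 10.88, 11.17 and 11.38 on early arrays, so the groups overlapped with 7 of 13 late arrays below the lowest early array. Late minus early was -0.23 ± 0.07 (adjusted p = 0.055). It passed the threshold with the mean of the gene's probes (-0.20, adjusted p = 0.0156), the muscle covariate (0.0158), robust variances (0.0293), and with any of 8 single arrays left out. A second probe, ILMN_3047749, differed from naive by -0.33 ± 0.11 in the middle phase and by -0.30 ± 0.11 in the late phase, with adjusted p over all kept probes of 0.0568 and 0.0925. The first probe differed by -0.04 and -0.13 in these phases. With the mean of the kept probes, Cacnb4 passed the threshold against naive in both, at -0.19 (adjusted p = 0.0389) and -0.21 (0.0116). The remaining probe of the gene was above the detection level on no array.

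Cacnb1 encodes the beta-1 subunit, the beta subunit of skeletal muscle, which neurons also make in other splice forms. Its probes were dim. The brighter one, ILMN_2674213, was above the detection level on 19 of 40 arrays and ran from 6.78 to 7.12 on early arrays, against 6.41 to 7.12 on naive arrays. It differed from naive by 0.12 early, -0.01 in the middle phase and 0.03 late (adjusted p = 0.698, 0.961 and 0.919). The other, ILMN_2603539, was above the level on 4 arrays and differed in the early phase by -0.31 ± 0.09 (adjusted p over all kept probes 0.101), so that both probes disagreed in sign.

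Cacng2 encodes stargazin, which is known chiefly as an auxiliary protein of AMPA-type glutamate receptors. Its probe ILMN_2778812 was near background, above the detection level on 4 of 40 arrays. Middle arrays ran from 6.21 through 6.51 to 6.73, against 6.43, 6.80 and 7.01 in naive ganglia. All 11 middle arrays lay below the naive mean, and the groups overlapped.

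The middle difference of Cacng2 was -0.30 ± 0.09 (adjusted p = 0.0253, n = 11 against 7). No middle array and 2 of 7 naive arrays were above the detection level, and the naive mean of 6.76 was itself below it, so no fold is given. With neqc background correction the difference was -0.05. Leaving out a single array ended the call for naive replicates 1, 3, 5 and 7 (adjusted p = 0.0511, 0.0654, 0.0711 and 0.059) and 4-day replicate 1 (0.0844), and the gene was not tested where 20 arrays had to be above the level.

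**Figure D4:**
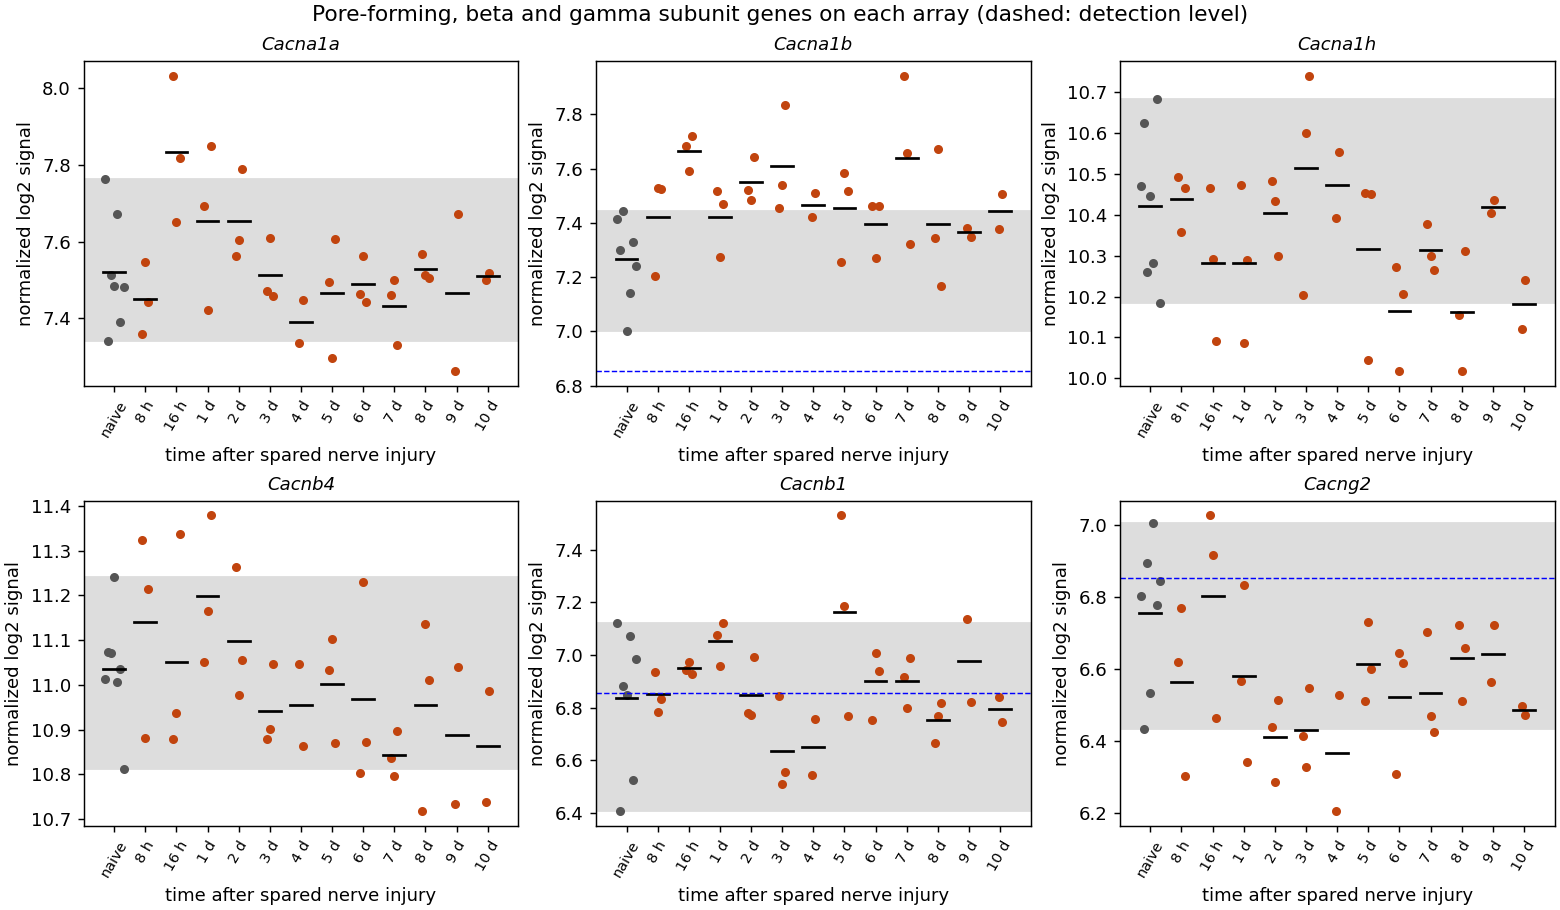
Normalized log2 signal (vertical axis, scaled for each gene) of the pore-forming, beta and gamma genes on each array by time after spared nerve injury, with naive at the left end. Points are arrays, lines are group means, the grey band is the range of the 7 naive arrays and the dashed line in the panels of Cacna1b, Cacnb1 and Cacng2 is the detection level of 6.85; the 16-hour arrays of Cacna1b all lie above the band, and most Cacng2 arrays lie below the dashed line.

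**Figure D5:**
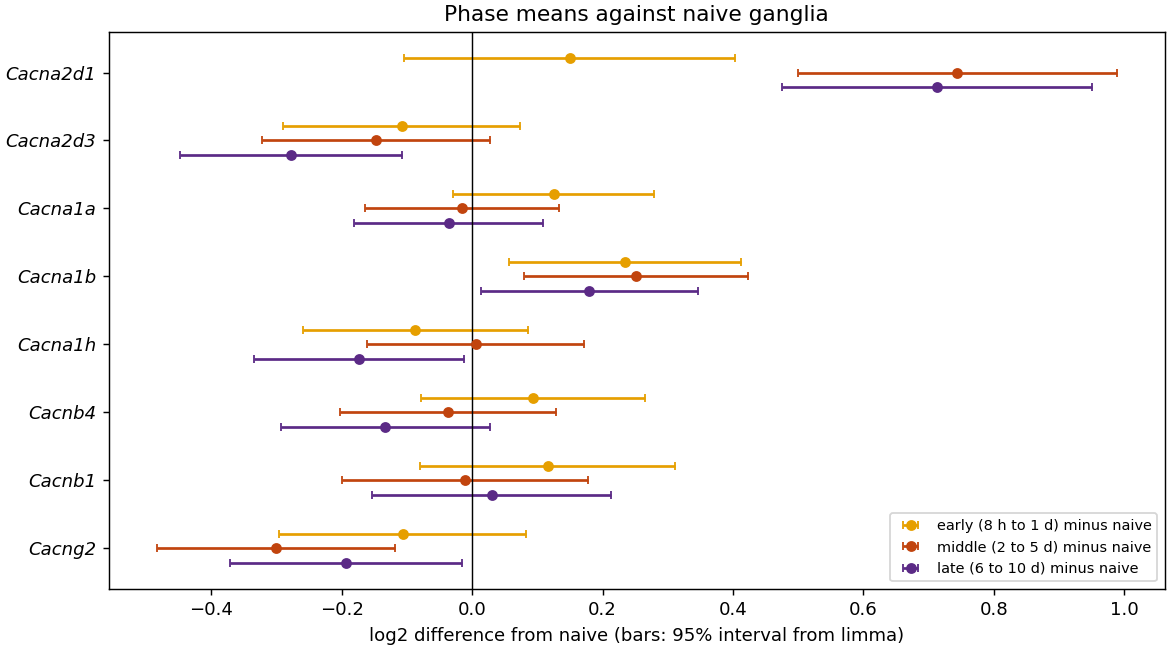
Log2 difference of the early, middle and late phase from naive (horizontal axis) for the 8 measured genes, with the 95% interval from limma before adjustment over genes as bars. The Cacna2d1 middle and late values of 0.74 and 0.71 stand apart from those of the other 7 genes, which lie between -0.30 and 0.25.

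Directions differed among the members. Their median difference from naive was 0.10 in the early, -0.01 in the middle and -0.08 in the late phase, beside -0.01, -0.01 and -0.02 over all genes tested. In the plot of phase differences, Cacna2d1 and Cacna1b lie to the right of 0 in each phase and Cacna2d3 and Cacng2 to the left.

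Other subunits of the channel family were counted beside the members. Of 16 further subunit genes 12 had a probe and 6 were measured (Cacna1c, Cacna1d, Cacna1f, Cacng4, Cacng5 and Cacng7), and 1 of these passed in the late phase and none in the early or middle phase, where 10.9% of all genes passed late, 1.12% early and 10.9% in the middle phase. Their median difference was -0.04 in the late phase. Cacng5, a relative of stargazin, ran from 9.01 through 9.18 to 9.45 on late arrays, against 9.32, 9.45 and 9.60 in naive ganglia, with 11 of 13 late arrays below the lowest naive array. Its late difference was -0.26 ± 0.06 (adjusted p = 0.00532).

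Among binding partners and regulators of these channels, Rem2 fell and Stac and Thbs2 rose. Of 27 listed genes 23 had a probe and 16 were measured. In the early phase 1 of the 16 fell, in the middle phase 1 rose and 2 fell, and in the late phase 2 rose and 2 fell, with a median of -0.02 in the late phase. The shares over all genes tested were 1.12%, 10.9% and 10.9% in these phases.

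Rem2 encodes a small GTPase that binds the beta subunit and inhibits high-voltage-activated calcium channels. Its late arrays ran from 8.58 through 8.90 to 9.19, against 9.30, 9.44 and 9.64 in naive ganglia, and every middle and late array lay below every naive array. It fell by 0.28 on the log2 scale in the early phase (adjusted p = 0.0453), by 0.52 in the middle phase (1.39e-06) and by 0.58 in the late phase (5.86e-08). Late minus early was -0.30 ± 0.06 (adjusted p = 0.000994). The early call was near the threshold and was lost with 16 of 40 single arrays left out (adjusted p up to 0.121) and under 8 of 14 other settings.

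Stac encodes an adaptor that binds L-type channels. Its middle arrays ran from 10.43 through 10.88 to 11.08, against 10.02, 10.23 and 10.77 in naive ganglia. It rose by 0.53 ± 0.09 in the middle phase (adjusted p = 6.51e-05) and by 0.36 ± 0.09 in the late phase (0.00466). Its relative Stac2 was lower in the late than in the middle phase, with a difference of -0.29 ± 0.07 (adjusted p = 0.0497), a call that was lost with 28 of 40 single arrays left out (adjusted p up to 0.211).

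Thbs2 encodes a thrombospondin, a secreted protein family that binds alpha2delta-1. It rose by 0.47 ± 0.11 in the late phase (adjusted p = 0.00246), with late arrays from 7.53 through 7.78 to 8.86, against 7.20, 7.43 and 7.87 in naive ganglia. With neqc background correction the difference was 0.23. Fibroblasts also make thrombospondins, and the array means of 5 fibroblast markers lay between 10.13 and 10.64 in the late phase, against 9.76 to 10.03 in naive ganglia. Their part in the Thbs2 difference was not tested.

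Rims1 and Rims2 encode active-zone scaffolds that bind calcium channels at release sites. In the middle phase Rims1 fell, with a difference of -0.33 ± 0.09 (adjusted p = 0.0115) and 10 of 11 middle arrays below the lowest naive array. In the late phase Rims2 fell, with a difference of -0.30 ± 0.09 (adjusted p = 0.0275), and late minus early was -0.39 ± 0.09 (adjusted p = 0.00213). The Rims1 call was lost without 4-day replicate 1 (adjusted p = 0.0542), and the difference was -0.16 with neqc. Rims1 did not pass the F-test over all times (adjusted p = 0.191). The late call of Rims2 was lost without naive replicate 2, 6 or 7 (adjusted p = 0.0577, 0.0854 and 0.0733), 9-day replicate 2 (0.0589) or 10-day replicate 2 (0.0526).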

How the data were processed

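Per the file headers, the authors deposited unnormalized intensity for 25697 probes on 40 Illumina arrays. A detection p-value accompanies each deposited intensity. Their other deposited table is in log2 and departs from a plain quantile normalization of the intensities by at most 0.0382. Per the labels' protocols, RNA was extracted with Trizol, treated with DNase and labelled with biotin. The scanner software is not given in the sources used here.

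Intensities went through normexp (offset 50), then quantile normalization and log2. The detection p-values tracked intensity on only 3 arrays and not on the other 37, so these 3 set the detection level, the smallest value whose detection p-value was under 0.05 (mean 6.85, range 6.82 to 6.88). A filter of 3 arrays above that level left 15462 probes. Genes came from the platform's probe table (23978 probes with 1 symbol, 1719 with none). The kept probe with the highest mean represented a gene (10519 genes, 2819 with several kept probes). Limma (version 3.58.1 in R 4.3.3) fitted 1 mean per group over all 40 arrays, with moderated variances and a trend. P-values were adjusted by Benjamini-Hochberg over all genes within a comparison, with a threshold of 0.05, and over all kept probes where a second probe is described. The fit was tested on simulated data. The number of arrays limits the precision.

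The members and lists were chosen with earlier results of these data known. All members are named. Of the other lists, the genes past the threshold are named, at most 4 per list and phase. Alternatives covered background, normalization, filter, probe choice, variances, a muscle covariate, blocks and single arrays left out. The sample of 10-day replicate 2 was kept as labelled, although its detection column is named for another time.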

Additional observations from a re-analysis of the deposited data

Results flagged for a closer look

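Cacna2d1 differed between phases in a direct contrast of late with early arrays, with a log2 difference of 0.56 ± 0.11 (SE, adjusted p = 0.000429, n = 13 against 9). Among the 12 probes screened, no naive array stood apart from the other 6 by Dixon's criterion.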

How the results depend on the processing

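Cacna2d1 kept its middle call under all 14 planned or added settings (0.49 to 0.85) and all 40 single-array omissions (0.66 to 0.81). Its late call held under the same omissions (0.63 to 0.77) and 13 of 14 settings. Late minus early held in all (0.51 to 0.65).

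Correlations of arrays over all genes showed no pairing by replicate number. Of same-number pairs 76 of 201 correlated above 0.1 (median r -0.021), beside 198 of 528 pairs with different numbers (median r 0.006). For 7 of 40 arrays the best correlation was with an array of their own number. Such correlations may miss a pairing that affects few genes. With the replicate block, which leaves naive replicates 4 to 7 without weight, 1 member passed in the middle phase (Cacna2d1 0.49, adjusted p = 0.0488), 0 late (Cacna2d1 0.46, 0.0707) and 2 single-time calls were made. The block also ended the calls of Cacna2d3 late (0.23), Cacng2 in the middle phase (0.229) and Cacng5, Thbs2, Rims2 and Pvalb late (0.0883, 0.122, 0.093 and 0.122) and of Rims1 (0.063). With robust variances and array weights, 4 members passed at any time, 2 in late minus early and 1 in late minus middle. In that setting 12 single-time calls of members were made. Of all 10519 genes, 4553 passed there at any time, 997 in late minus early and 388 in late minus middle. With the mean of probes Cacnb4 was also called in the middle (0.0389) and late phase (0.0116). Late minus early counted 2 members with the mean of probes, the muscle covariate, without 10-day replicate 2 and without the 3 arrays highest in muscle markers (the last chosen after seeing the data). Of all 10519 genes, 786, 807, 657 and 621 passed in these settings. Leaving out single arrays gave 1 to 1 members at any time, 0 to 0 early, 1 to 3 in the middle phase, 1 to 2 late, 1 to 2 in late minus early, 0 to 0 in late minus middle and 6 to 8 single-time calls.

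Values near 0 turned sign. With the replicate block, Cacna2d1 was -0.10 early and -0.13 at 16 h, Cacna1h -0.0243 and Cacnb1 0.0195 in the middle phase. With the mean of probes, Cacnb1 was -0.095 early, -0.065 late and 0.03 in late minus early, and Cacnb4 -0.016 early. Cacna1a in the middle phase was 0.00849 with cyclic loess. Cacnb1 was 1.931e-05 in the middle phase with neqc and -0.0178 late with robust variances. Without the 3 muscle-high arrays, Cacna1h was -0.00513 and Cacnb1 0.00523 in the middle phase. Single-array ranges that crossed 0 were, for Cacna2d1, -0.0936 to 0.00646 (late minus middle), -0.247 to 0.0641 (8 h) and -0.0357 to 0.215 (16 h). For Cacna1a they were -0.0451 to 0.025 (middle), -0.077 to 0.00474 (late) and -0.0617 to 0.01997 (late minus middle), and for Cacna1h -0.0339 to 0.0489 (middle). For Cacnb1 they were -0.0818 to 0.0385 (middle), -0.0411 to 0.0782 (late) and -0.0084 to 0.0868 (late minus middle). The causes were not tested.

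Over all genes, robust variances gave 4553 at any time, 212 early, 2127 in the middle phase and 388 in late minus middle, the muscle covariate 223 early, and the replicate block 505, 39, 649 and 551 (any time, early, middle, late). Cacna2d1 at 10 days was also not called with robust variances (0.0738) or with runs of sample names as a block (0.06). Cacnb1 and Cacng2 gave no value where 20 arrays had to exceed the detection level. Signal near background limits Cacng2 and Cacnb1.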

Other observations

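Genes of calcium stores, pumps and buffers, which clear and bind the calcium that channels let in, were counted as a further list. Of 23 listed genes 21 had a probe and 16 were measured; none passed in the early phase, 2 fell in the middle phase and 2 in the late phase, and 1 passed the F-test. Over all genes tested, 1.12% passed early, 10.9% in the middle phase, 10.9% late and 7.52% in the F-test. The median difference was -0.08 in the late phase, against -0.02 over all genes.

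Calb2 encodes calretinin, a calcium-binding protein. Its late arrays ran from 7.35 through 7.90 to 8.17, its middle arrays from 8.17 through 8.58 to 8.98, and naive arrays from 8.91 through 9.12 to 9.47. Late minus middle was -0.77 ± 0.08 (adjusted p = 1.4e-06), and every late array lay below every middle array. With neqc the difference was -0.44. Pvalb, which encodes parvalbumin of large proprioceptive neurons and of muscle, ran from 11.89 through 12.20 to 13.85 on late arrays, against 12.62, 12.87 and 13.19 in naive ganglia. Its late difference was -0.59 ± 0.16 (adjusted p = 0.0128), with 11 of 13 late arrays below the lowest naive array and 1 above the highest. Under 14 other settings the late Pvalb difference ran from -0.78 to -0.58. These included a muscle covariate and a fit without the arrays highest in muscle markers. The late call was lost under 1 of them, the replicate block (adjusted p = 0.122). With single arrays left out the difference ran from -0.71 to -0.51. The share of the Pvalb signal that came from muscle RNA was not tested.

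Atp2b3, a plasma membrane calcium pump gene, differed in the middle phase by -0.37 ± 0.10 (adjusted p = 0.0179), with 0 of 11 middle arrays and 3 of 7 naive arrays above the detection level, so that the middle level is only a bound. With neqc it was -0.08, and the call was lost without naive replicate 3, 6 or 7 (adjusted p = 0.0603, 0.053 and 0.0615). Atp2a2, the pump that refills the endoplasmic reticulum, was lower in late than in early arrays, with a difference of -0.18 ± 0.05 (adjusted p = 0.0134). The Atp2a2 call was lost without 8-hour replicate 3 (0.0511). Neither pump gene passed the F-test over all times (adjusted p = 0.372 for Atp2b3 and 0.375 for Atp2a2).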
